A study of Mus musculus with 32 samples.

Results

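The mesothelium is the flat epithelial layer that covers the liver capsule and the other organs of the abdominal cavity and lines the body wall. Its cells carry membrane glycoproteins and simple-epithelial keratins and keep the organ surface smooth, and in mouse development they can give rise to stellate cells and fibroblasts inside the liver. In a piece of whole liver they are a thin rim around a mass of hepatocytes, so their transcripts are expected at low levels in bulk RNA. A set of 10 mesothelial lining genes was followed here, chosen by gene symbol: Upk3b, Msln, Upk1b, Muc16, Gpm6a, Krt7, Anxa8, Cldn15, Rspo1 and Nkain4. They are 10 of 533 genes listed in either of 2 deposited tables. The table of experiment P holds 6 of them among 242 genes, the table of experiment T holds 6 among 306 genes, and Upk3b and Msln stand in both. Of 15 genes shared by the tables, these are the only 2 from the set. The tables hold only genes the authors had selected for a difference between groups, so mesothelial genes outside that selection are not in the set.

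The libraries were made from total liver RNA of C57BL/6J mice given either vehicle or SXB, which is sodium oxybate, a narcolepsy drug and the sodium salt of gamma-hydroxybutyrate; the study asked how SXB acts on body weight while obesity develops and once it is established. Each experiment had 8 libraries labelled vehicle and 8 labelled SXB, 32 in all. The labels name experiment T as experiment 1 and experiment P as experiment 2, and which form of obesity each letter stands for, the age and sex of the animals, the diet and the dose were not stated in the sources used here. The labels do not tie libraries to animals, so the p-values below speak only of the spread between libraries, which may be technical.

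Both tables hold only genes that the authors had already selected on these same libraries, by a log2 fold change of more than 1 up or down together with p < 0.05 before adjustment. Any difference between the groups is therefore partly built into the list, and the tests below describe its size against the spread between libraries without being independent evidence of it. Hepatocyte genes and the best known further mesothelial markers were mostly not in these tables: 0 of 8 hepatocyte genes stood in either, and of 34 further mesothelial genes (Wt1 and Lrrn4 among them) 0 stood in P and 2 in T, so neither the tissue label nor the cell type could be checked beyond the set itself. The values are the authors' normalised expression values, rounded to 0.01, and the sequencing depth is unknown. A listed 0 can be a failed estimate, because the mitochondrial gene mt-Atp6 is listed at 0 in several libraries of T, so values are given library by library and no mean with SD is given.

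In T, 4 libraries stood apart. Libraries 1, 2 and 3, labelled SXB, and library 4, labelled vehicle, held mt-Atp6 values of 2227, 486.4, 3298 and 6422, against 44.8 or less in the other 12. Library 16 is labelled vehicle and library 18 SXB, but each stands in the column block of the other group, and each treatment difference of a member in T is given with and without them. The log2 fold changes in the authors' deposited table of T differ from those recomputed under the labels by 0.428 (median over genes), and from those without libraries 16 and 18 by 0.258. In P, vehicle libraries 33, 34 and 35 held the highest vehicle values of the acute phase gene Orm2 (540, 897 and 140.1), against 8.03 to 10.4 in the other 5 vehicle libraries.

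In the mouse annotation GENCODE M21 (build GRCm38) all 10 genes are protein-coding. Upk3b lies at chr5:136038496-136046487 on the plus strand, Msln at chr17:25748613-25754378 on the minus strand and Upk1b at chr16:38773184-38800328 on the minus strand. Muc16 lies at chr9:18495455-18674530 (minus), Gpm6a at chr8:54954843-55060871 (plus) and Krt7 at chr15:101411043-101430313 (plus). Anxa8 lies at chr14:34085981-34100571 (plus), Cldn15 at chr5:136966616-136975858 (plus), Rspo1 at chr4:124986430-125009099 (plus) and Nkain4 at chr2:180934772-180954699 (minus). Upk3b and Cldn15 share chromosome 5, with 920129 bases and 25 annotated genes between them. Gpm6a shares its strand with 5 overlapping models, and Muc16, Krt7, Anxa8, Rspo1 and Nkain4 each overlap 1 antisense gene. The sources used here do not say whether the authors counted by strand, so reads of the genes with an antisense partner may be shared with it. Reads of Gpm6a may be shared with its same-strand models whether or not the authors counted by strand.

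RefSeq promoter windows were found for 7 of the 10 genes (8 windows, Gpm6a having 2): Upk3b, Muc16, Gpm6a, Krt7, Anxa8, Cldn15 and Rspo1. The 250 bases before the start were searched on both strands for CATTCC, the core letters of the site of TEAD factors, and for GCGGGGGCG, a site shared by EGR factors and WT1; neither motif contains the other. CATTCC or its reverse GGAATG stood in 3 of the 8 windows, those of Upk3b, Cldn15 and Gpm6a, and in 12.6% of all 32851 RefSeq windows of that length. GCGGGGGCG stood in 0 of the 8 and in 2.57% of all windows. The 2 windows from chromosome 5 are shown because Upk3b and Cldn15 were among the closest pairs across the libraries of T, as described below, a choice made after those values were seen. Both are on the plus strand of GRCm38.p6, chr5:136038246-136038495 for Upk3b and chr5:136967619-136967868 for Cldn15, and capitals mark CATTCC.
Upk3b: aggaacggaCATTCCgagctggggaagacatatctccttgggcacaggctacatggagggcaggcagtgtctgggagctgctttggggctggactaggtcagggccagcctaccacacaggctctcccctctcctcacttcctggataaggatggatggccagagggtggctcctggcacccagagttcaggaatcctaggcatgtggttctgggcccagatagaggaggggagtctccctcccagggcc
Cldn15: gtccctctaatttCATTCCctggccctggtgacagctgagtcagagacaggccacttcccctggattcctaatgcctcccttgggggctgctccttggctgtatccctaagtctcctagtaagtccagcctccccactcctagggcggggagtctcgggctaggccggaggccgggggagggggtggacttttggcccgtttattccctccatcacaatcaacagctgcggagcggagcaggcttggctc
The match begins 241 bases before the RefSeq start in Upk3b and 237 bases before it in Cldn15. Both windows have a GC content of 60.8%. The RefSeq start of Cldn15 lies downstream of its GENCODE gene start, so this window falls inside the gene position given above. Of the 2 Gpm6a windows, only chr8:54779184-54779433 held the match, and it lies upstream of the GENCODE position of Gpm6a. A match is only a match of letters, and no binding was measured.

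In experiment P, all 6 listed mesothelial genes had a higher median with SXB than with vehicle, and Upk3b and Gpm6a passed limma. Upk3b is a uroplakin found on the surface of mesothelium and urothelium. Its deposited values with vehicle were 0.03, 0.03, 0.04, 0.10, 0.09, 0, 0.03 and 0.01 in libraries 21, 22, 26, 31, 33, 34, 35 and 36. With SXB they were 0.09, 0.09, 0.14, 0.09, 0.19, 0.22, 0.26 and 0.01 in libraries 19, 20, 23, 24, 25, 28, 29 and 30. Thus 7 of 8 SXB libraries lay above the vehicle median of 0.03 and 4 lay above the highest vehicle library, while SXB library 30 was among the lowest, so the groups overlap. Upk3b differed by 0.12 as log2(value + 1), a scale that compresses changes of genes this low (SE 0.04, limma adjusted p = 0.0297, exact permutation test p = 0.0103, two-sided). The authors' deposited table gives 3.37-fold higher, with an adjusted p of 0.0870. The limma adjustment ran only over genes the authors had already selected, so it does not account for the genes left out.

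Msln encodes mesothelin, a lipid-anchored surface glycoprotein of mesothelial cells. Its vehicle values were 0, 0, 0.02, 0.08, 0.22, 0, 0.12 and 0 in libraries 21, 22, 26, 31, 33, 34, 35 and 36. Its SXB values were 0.22, 0.11, 0.21, 0, 0.22, 0.26, 0.26 and 0.02 in libraries 19, 20, 23, 24, 25, 28, 29 and 30. Msln was listed at 0 in 4 vehicle libraries and in 1 SXB library, and 5 SXB libraries held 0.21 or more, a level that vehicle library 33 also reached. The log2 difference was 0.14 (SE 0.06) and did not pass (limma adjusted p = 0.0740). The authors' deposited table gives 5.44-fold higher with an adjusted p of 1. Muc16, the membrane mucin that binds mesothelin in human cells, was listed at 0 in 6 of 8 vehicle libraries and at 0.01 in libraries 21 and 22. With SXB it ran from 0 to 0.09 with a median of 0.035, and 5 of the 8 libraries lay above the highest vehicle value. Its log2 difference of 0.05 (SE 0.02) did not pass limma (adjusted p = 0.0669).

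Upk1b, a tetraspanin of the uroplakin family, was listed at 0 in 6 vehicle libraries and at 0.02 and 0.03 in the other two. With SXB it was listed at 0 in libraries 19 and 30 and at 0.02 to 0.10 in the other 6, of which 4 lay above the highest vehicle library. Its log2 difference was 0.06 (SE 0.02, limma adjusted p = 0.0580) and did not pass. Gpm6a, a four-pass membrane glycoprotein best known from neurons, was above 0 in all 16 libraries, from 0.01 to 0.10 (median 0.045) with vehicle and from 0.03 to 0.16 (median 0.11) with SXB. Gpm6a rose by 0.08 (SE 0.03, limma adjusted p = 0.0471), with 7 of 8 SXB libraries above the vehicle median. Krt7, a keratin of simple epithelia that bile duct cells also express, ran from 0.01 to 0.15 (median 0.045) with vehicle and from 0.02 to 0.17 (median 0.105) with SXB. Only 1 SXB library lay above the highest vehicle library of Krt7, and the difference of 0.06 (SE 0.03, limma adjusted p = 0.134) did not pass. The authors' deposited table gives 5.72-fold higher for Upk1b, 6.47-fold for Muc16, 2.11-fold for Gpm6a and 2.15-fold for Krt7, with adjusted p-values of 1, 1, 0.286 and 0.184.

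**Figure D1:**
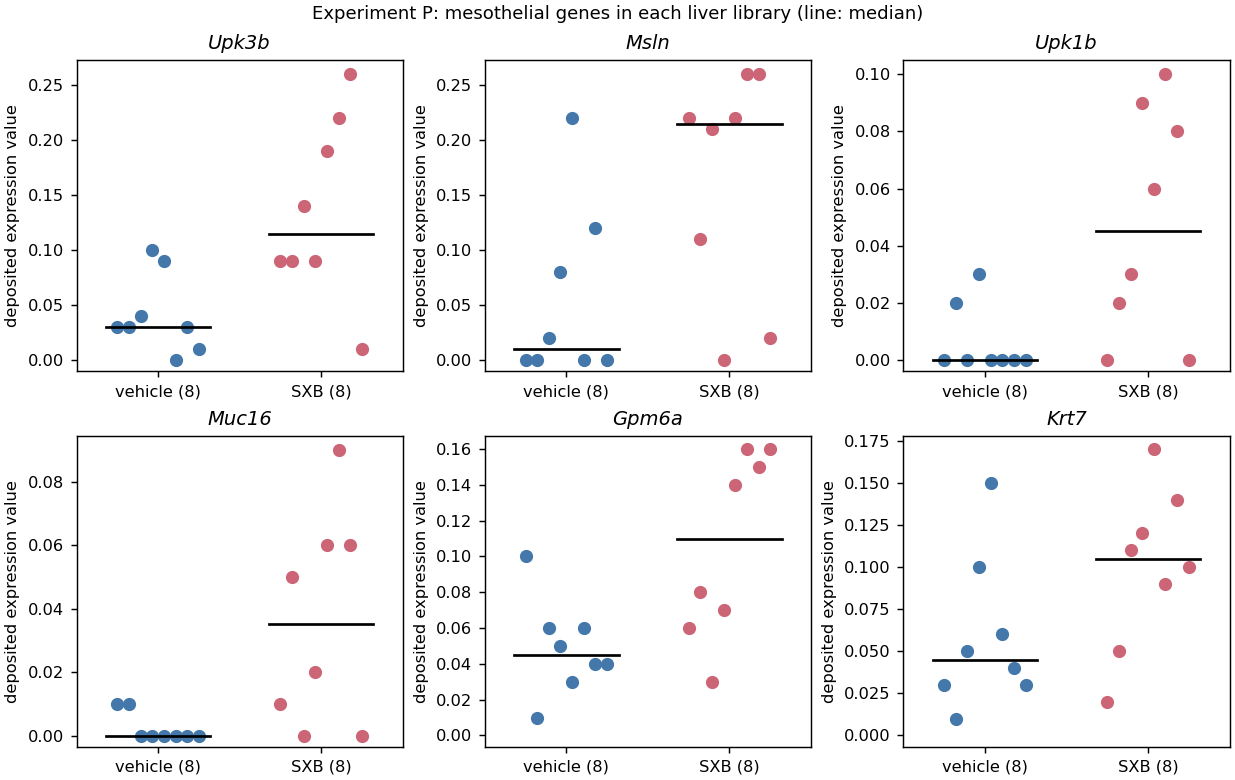
Deposited expression value (vertical axis, the authors' normalised unit) of the 6 mesothelial genes listed in experiment P, 1 point per library, 8 vehicle and 8 SXB, with a line at the median. In each panel the SXB median is the higher one and the groups overlap, and Muc16 is listed at no more than 0.01 with vehicle.

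In all, 2 of the 6 members passed limma in P, against 38.8% of all 242 genes of the table (4.13% higher and 34.7% lower with SXB). The share of members called is near that of both directions together, most of which is genes lower with SXB. Of the 41 genes higher with SXB in P, 10 passed. The median difference was 0.07 over the 6 members against -0.17 over all genes. That all 6 stand among the higher genes follows from the authors' selection, which listed 41 genes as higher and 201 as lower in P. Among the members that did not pass, Msln passed when vehicle library 33 or SXB library 24 or 30 was left out, Upk1b without SXB library 19 or 30, and Muc16 without SXB library 23 or 30. The rise of Upk3b did not pass when vehicle library 35 or SXB library 25, 28 or 29 was left out (log2 differences 0.10 to 0.12, limma adjusted p up to 0.0554). The rise of Gpm6a did not pass in 12 of 16 such omissions, the exceptions being vehicle library 21 and SXB libraries 19, 23 and 24. Without vehicle libraries 33, 34 and 35 none of the 6 passed (22.3% of all genes did, 1.65% higher and 20.7% lower). The differences stayed close, at 0.12 for Upk3b, 0.18 for Msln, 0.05 for Upk1b, 0.04 for Muc16 and 0.07 for both Gpm6a and Krt7. This omission took out vehicle libraries only. SXB libraries 25 and 28, with Orm2 at 163 and 85.1, were kept, so high Orm2 was not removed from both groups. The exact permutation test passed 3 members with Muc16 added (46.7% of all genes), and a pseudocount of 0.1 passed 4 with Upk1b and Muc16 added (45.5% of all genes, 7.02% higher and 38.4% lower). A pseudocount of 0.01 also passed 4 members (53.7% of all genes, 9.92% higher and 43.8% lower), as did trend and robust fitting (48.3%, 7.02% higher and 41.3% lower).

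The highest values of P lay mostly in 3 SXB libraries. SXB libraries 25 and 29 held a value among the 4 highest of the table (ties counted) for all 6 members, and library 28 did for 5. Among vehicle libraries only library 33 held any such value, for 2 members. The sum of the 6 deposited values was 0.84, 0.92 and 0.95 in SXB libraries 25, 28 and 29, and 0.29 to 0.52 in the other 5 SXB libraries. With vehicle it was 0.08 to 0.49 with a median of 0.17, which lay below the lowest SXB library. SXB library 30, at 0.29, and vehicle library 33, at 0.49, show where the groups overlap. In bulk RNA, a larger share of mesothelial cells and more RNA per such cell cannot be told apart. Of the 9 resident liver macrophage genes, 5 stood in the table of P (Marco, Cd5l, Timd4, C1qb and Adgre1) and all 5 fell with SXB, in a table where the authors' selection listed 201 of 242 genes as lower and 34.7% passed as lower, with a summed value of 45.6 to 100.4 with vehicle and 29.1 to 44.1 with SXB and none listed at 0. The mitochondrial gene mt-Co3 was 4.88 and 43.0 in libraries 28 and 29 but 0.14 in library 25, and 44.3 in SXB library 24, which was not high in the summed mesothelial value. Orm2 was 163 and 85.1 in SXB libraries 25 and 28 but 11.7 in library 29. The part of these in the mesothelial result was not tested.

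**Figure D2:**
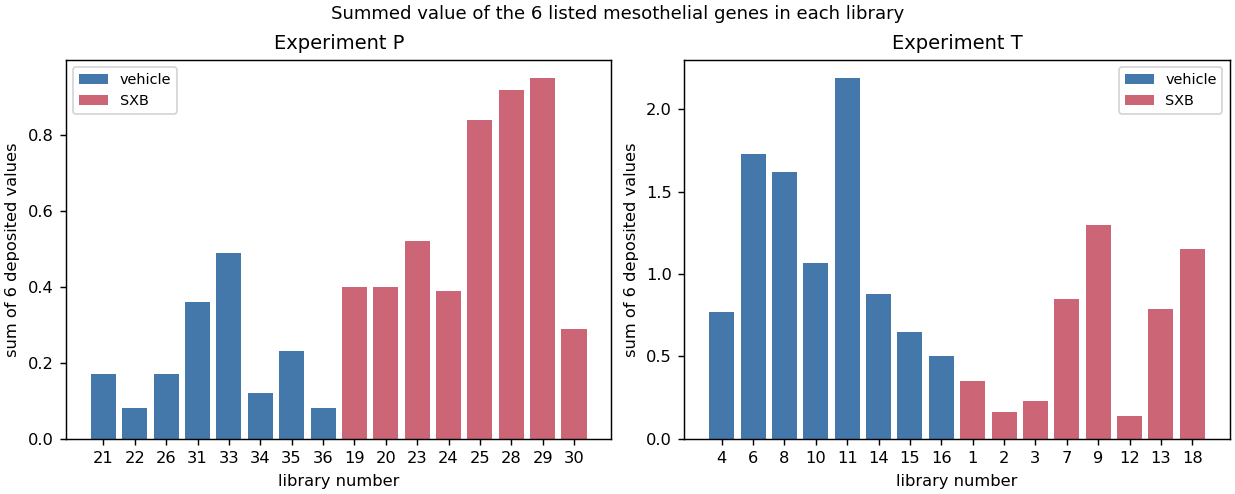
Sum of the deposited values of the 6 listed mesothelial genes (vertical axis, starting at 0) in each library (horizontal axis, library number), vehicle in blue and SXB in red; the 6 genes differ between the experiments, so heights compare within a panel only. In P, SXB libraries 25, 28 and 29 stand at 0.84 to 0.95, and in T, vehicle library 11 reaches 2.19 while SXB libraries 1, 2, 3 and 12 lie at 0.14 to 0.35.

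In experiment T, the medians lay the other way: all 6 listed mesothelial genes had a lower median with SXB than with vehicle, and none passed the test under the labels. Each had entered the table as lower through the authors' selection, which listed 159 genes as lower and 147 as higher in T. The direction of these medians is therefore not independent evidence. Upk3b was 0.21, 0.42, 0.30, 0.22, 0.21, 0.13, 0.06 and 0.15 in vehicle libraries 4, 6, 8, 10, 11, 14, 15 and 16. It was 0, 0.02, 0, 0.12, 0.24, 0.01, 0.12 and 0.16 in SXB libraries 1, 2, 3, 7, 9, 12, 13 and 18. Thus 4 SXB libraries lay below the lowest vehicle library, and SXB library 9 lay above the vehicle median of 0.21. The log2 difference was -0.16 (SE 0.06, limma adjusted p = 0.167, exact permutation test p = 0.0207, two-sided), and without libraries 16 and 18 it was -0.19 (SE 0.07, limma adjusted p = 0.0619). The authors' deposited table gives 2.44-fold lower with an adjusted p of 0.460.

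Msln was 0.03, 0.28, 0.46, 0.17, 0.27, 0.08, 0.08 and 0.14 in vehicle libraries 4, 6, 8, 10, 11, 14, 15 and 16. It was 0, 0, 0, 0.06, 0.11, 0.05, 0.02 and 0.26 in SXB libraries 1, 2, 3, 7, 9, 12, 13 and 18. Library 18 therefore held 0.26, while the other SXB libraries reached 0.11 at most, and library 16 lay just under the vehicle median of 0.155. The log2 difference was -0.16 (SE 0.07, limma adjusted p = 0.167) under the labels. Without libraries 16 and 18 each of the 7 remaining SXB libraries held less than the vehicle median of 0.17, and the difference was -0.20 (SE 0.07). It did not pass limma (adjusted p = 0.0541) but passed the exact permutation test over all genes (adjusted p = 0.0497, two-sided), the only member to do so, against 19.9% of all 306 genes.

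Anxa8, an annexin that binds membrane phospholipids in the presence of calcium, ran from 0.09 to 0.93 (median 0.195) with vehicle and from 0 to 0.24 (median 0.06) with SXB. Vehicle library 11 held the 0.93, far above the next vehicle value of 0.29, and 5 SXB libraries lay below the lowest vehicle library. The log2 difference was -0.22 (SE 0.10, limma adjusted p = 0.167), -0.25 without libraries 16 and 18 (adjusted p = 0.0846) and -0.13 without vehicle library 11. Cldn15, a tight-junction claudin that forms a cation channel between epithelial cells, ran from 0.06 to 0.17 (median 0.12) with vehicle and from 0 to 0.21 (median 0.08) with SXB. SXB library 18 held its highest value of all 16. The log2 difference was -0.05 (SE 0.04, limma adjusted p = 0.319), and without libraries 16 and 18 it was -0.09 (SE 0.04, adjusted p = 0.0874), with each of the 7 remaining SXB libraries under the vehicle median of 0.15.

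Rspo1, a secreted R-spondin that strengthens Wnt signalling, was spread widely in both groups, from 0.03 to 0.41 (median 0.12) with vehicle and from 0 to 0.31 (median 0.07) with SXB. Its difference of -0.05 (SE 0.08, limma adjusted p = 0.567) was smaller than its error, and without libraries 16 and 18 it was -0.07 (adjusted p = 0.429). Over single omissions it ran from -0.087 without SXB library 1 to -0.010 without vehicle library 11, and it passed in none of the 16. Nkain4, a membrane protein that interacts with the sodium-potassium pump, was listed at 0 in vehicle libraries 4 and 16 and in SXB libraries 1, 2, 3 and 12. Its other values fell into a few levels: 0.13 in 1 library, 0.27 to 0.30 in 6 libraries and 0.48 to 0.55 in 3. The difference was -0.04 (SE 0.12, limma adjusted p = 0.777), and without libraries 16 and 18 it was -0.10 (adjusted p = 0.475). It was 0.0071 without vehicle library 6, so its direction under the labels rests on that library. The authors' deposited table gives 3.83-fold lower for Msln, 3.91-fold for Anxa8, 2.48-fold for Cldn15, 2.42-fold for Rspo1 and 3.47-fold for Nkain4, with adjusted p-values of 0.196, 0.121, 1, 1 and 1. Which group libraries 16 and 18 belonged to in the authors' comparison is not known. The authors' fold changes in T may therefore not compare the labelled groups.

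**Figure D3:**
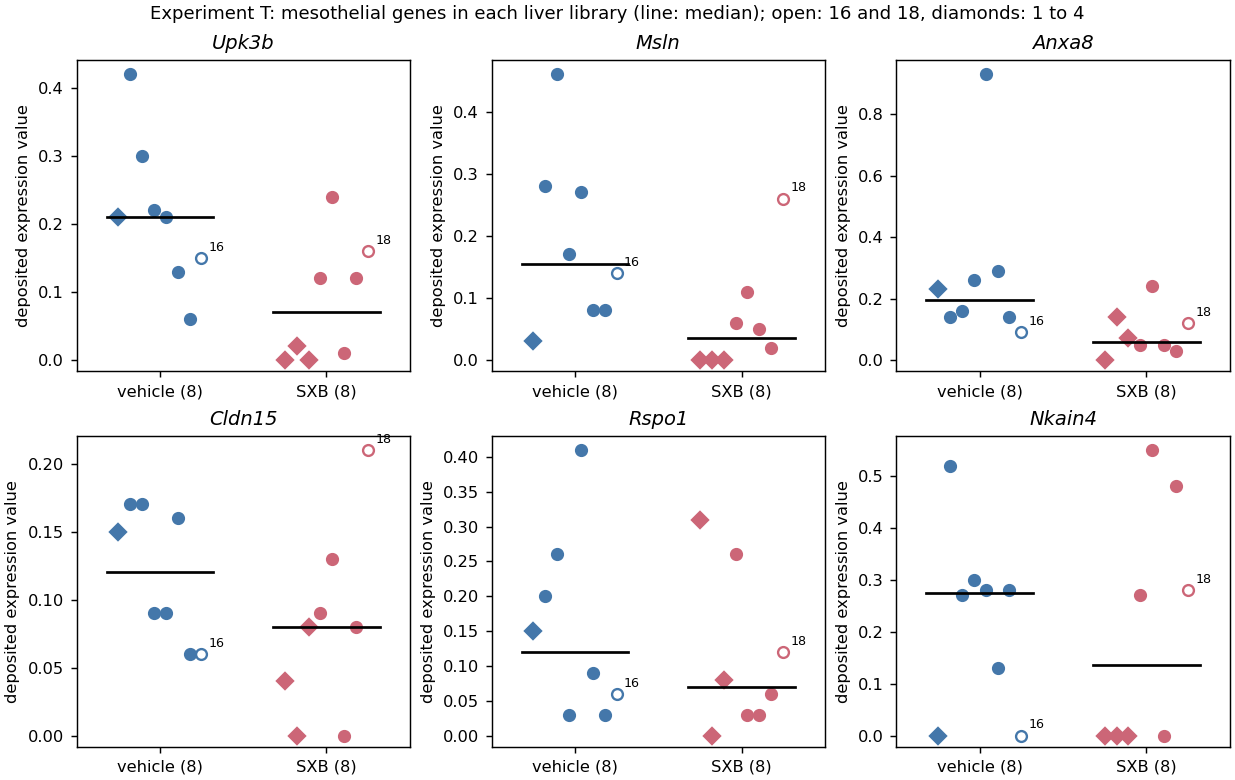
Deposited expression value of the 6 mesothelial genes listed in experiment T, 1 point per library, 8 labelled vehicle and 8 labelled SXB, with a line at the median of each labelled group. Open points mark libraries 16 and 18, and diamonds mark libraries 1 to 4, whose SXB members 1, 2 and 3 lie at 0 in Msln and Nkain4.

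By limma 0 of the 6 members passed in T under the labels, where 0.0% of the 306 genes passed. At an unadjusted p below 0.05 there were 3 members and 90 genes by limma, and 3 members and 97 genes by the exact permutation test. Without libraries 16 and 18, 0 of 6 members passed limma against 18.3% of all genes (6.21% higher and 12.1% lower with SXB), and 4 members had an unadjusted p below 0.05, as did 147 of the 306 genes. With a pseudocount of 0.1 in the same 14 libraries 3 members fell, Anxa8 by 1.07, Msln by 1.03 and Upk3b by 0.97 on that log2 scale (limma adjusted p-values 0.0398, 0.0337 and 0.0409), against 34.6% of all genes (13.4% higher and 21.2% lower). Leaving 1 further library out of the 14 passed Msln without vehicle library 14 (adjusted p = 0.0431) and Upk3b without SXB library 9 (adjusted p = 0.0408). Under the labels a pseudocount of 0.01 passed 0 members and 0.654% of all genes (0.327% in each direction). The median difference was -0.11 over the 6 members and -0.02 over all genes under the labels, and -0.14 and -0.04 without libraries 16 and 18.

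Libraries 1, 2 and 3, with high mt-Atp6, were also the SXB libraries with the most mesothelial zeros: 4, 4 and 3 of the 6 members were listed at 0, 11 of the 13 zeros in the SXB group together with 2 in library 12. Library 4, the vehicle library with high mt-Atp6, held 1 zero, and a summed value of 0.77 against 0.50 to 2.19 in the vehicle group. Only 1 vehicle library is among these 4, so a difference within them could not be tested. Without them the differences of Upk3b, Msln, Anxa8, Cldn15 and Rspo1 were -0.10, -0.14, -0.21, -0.02 and -0.06, and that of Nkain4 was 0.063, with none passing (0.0% of all genes). Without libraries 1 to 4, 16 and 18 those of Upk3b, Msln and Anxa8 were -0.12, -0.20 and -0.25, again with none of the 6 passing (1.31% of all genes, 0.984% higher and 0.328% lower). Vehicle library 11, the highest in Anxa8 and Rspo1, also held the highest value of the adipose gene Cfd (63.7). Of the 9 adipose tissue genes 2 stood in the table of T, with a summed value of 3.73 to 88.1 with vehicle and 1.42 to 20.1 with SXB, and Cfd listed at 0 in library 2; the part of adipose tissue in the result was not tested. Without libraries 16 and 18 Cfd fell by 2.36 with SXB on the log2(value + 1) scale (limma adjusted p = 0.0339), the direction of the members' medians. In that fit 12.1% of all genes passed as lower with SXB. Under the labels Cfd did not pass (limma adjusted p = 0.167). In P, Cidec was the only adipose gene listed and did not pass.

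**Figure D4:**
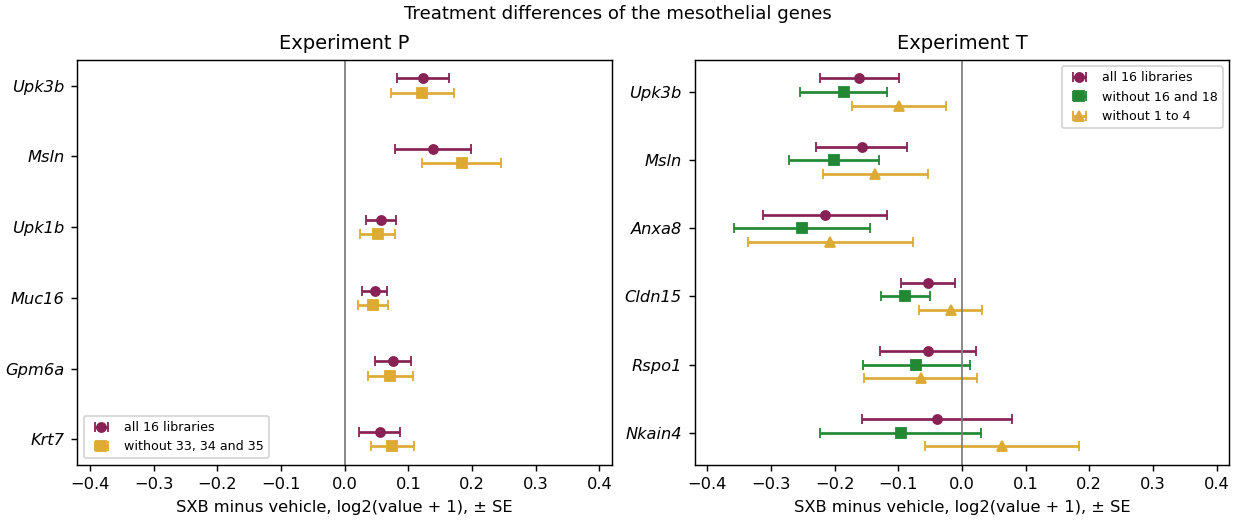
Difference of SXB minus vehicle on the log2(value + 1) scale (horizontal axis) with its standard error from limma, for the 6 members of each experiment (vertical axis), with all 16 libraries and with the named libraries left out. The points lie above 0 in P and below 0 in T, except Nkain4 in T without libraries 1 to 4.

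Upk3b and Msln, the members listed in both tables, allowed the experiments to be compared in their treatment differences. The levels were not compared, since each table was normalised on its own. The difference in T minus that in P was -0.28 for Upk3b (SE 0.08, limma interaction adjusted p = 0.00781) and -0.30 for Msln (SE 0.10, adjusted p = 0.0224), over 15 shared genes of which 33.3% passed. Without libraries 16 and 18 these were -0.31 (adjusted p = 0.00548) and -0.34 (adjusted p = 0.00548), with 40.0% of the shared genes passing. Each omission of a single library kept both calls. Without libraries 1 to 4 the differences were -0.22 and -0.27 and neither passed (adjusted p = 0.0675 for each, 0.0% of the shared genes). Without libraries 1 to 4, 16 and 18 they were -0.24 and -0.34 (adjusted p = 0.0498 and 0.0417, 26.7% of the shared genes). Without vehicle libraries 33, 34 and 35 of P they were -0.28 and -0.34 (adjusted p = 0.0213 for each, 3 of the 15 shared genes passing), and pseudocounts of 0.1 and 0.01 passed both genes as well (46.7% of the shared genes with either). Both genes had entered each table through the authors' selection on these libraries, in opposite directions, so the test is not independent evidence that the experiments differ.

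Within an experiment, Upk3b and Msln followed each other from library to library. With the mean of each treatment group removed from log2(value + 0.1), Pearson's r in P was 0.74 (n = 16, permutation p = 0.00151, adjusted p = 0.00302 over the 2 experiments) and Spearman's rho was 0.68 (permutation p = 0.00549, adjusted p = 0.00549). In T, r was 0.68 (n = 16, permutation p = 0.00395, adjusted p = 0.00395) and rho was 0.77 (permutation p = 0.00142, adjusted p = 0.00284). Without the 2 libraries farthest from the median of Upk3b, r was 0.68 in P (without 29 and 30) and 0.66 in T (without 9 and 15). Without libraries 16 and 18 r in T was 0.64, and without libraries 1 to 4 it was 0.66. The values of a library share its RNA preparation and depth.

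**Figure D5:**
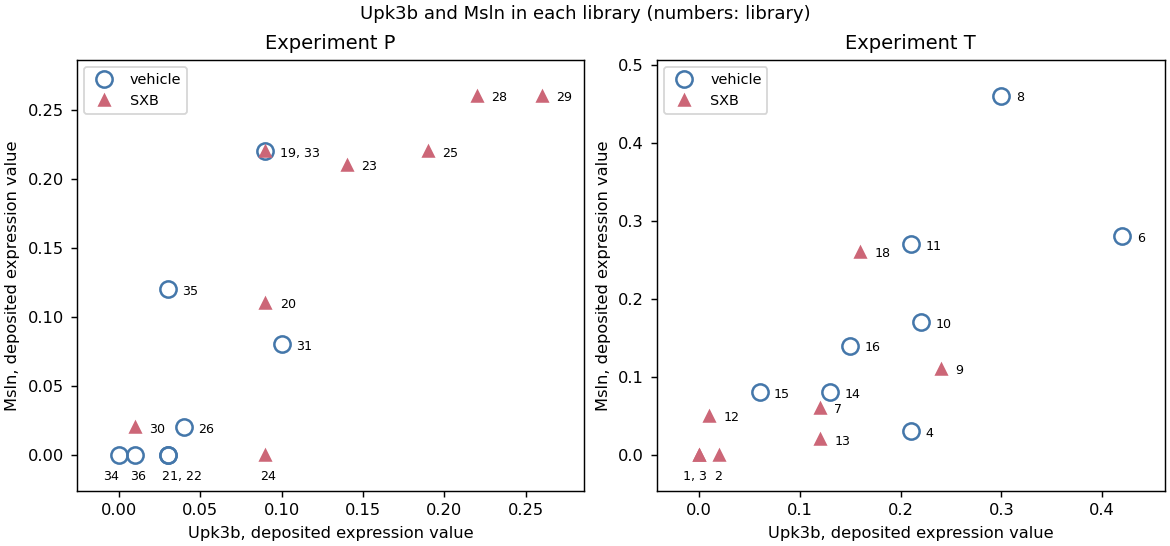
Msln (vertical axis) against Upk3b (horizontal axis), both as deposited expression values, 1 symbol per library with its number, open circles for vehicle and filled triangles for SXB. The genes are low together and high together in both experiments, with SXB library 24 of P (0.09 and 0) and vehicle library 4 of T (0.21 and 0.03) combining low Msln with a middling Upk3b.

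The remaining pairs of members followed each other to different degrees. Over the 15 pairs in P, Spearman's rho of the centred values ran from -0.04 (Msln with Gpm6a) to 0.68 with a median of 0.33. Over the 15 pairs in T it ran from -0.14 (Anxa8 with Rspo1) to 0.77 with a median of 0.28. In T, Upk3b went with Cldn15 (0.77), Msln (0.77) and Nkain4 (0.70), while Anxa8 and Rspo1 went with Upk3b at 0.25 and 0.26. In P, Upk3b went with Upk1b (0.57), Krt7 (0.52) and Muc16 (0.48), and with Gpm6a at 0.12. These are descriptions over 16 libraries, and values rounded to 0.01 at this level have many ties.

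Genes outside the set were ranked by their likeness to the averaged members, as Spearman's rho over the 16 libraries of each table with group means removed. In P the nearest of 219 ranked genes were Wfdc17 (0.67), a small secreted protein of macrophages, an unnamed model (0.66), Ncf1 (0.59), a subunit of the phagocyte oxidase, Aoah (0.58), an enzyme that inactivates endotoxin, and Ighg1 (0.55), an immunoglobulin heavy chain gene. Of these, Wfdc17, Ncf1 and Aoah were lower with SXB (log2 differences -1.03, -0.39 and -0.20, limma adjusted p-values 0.00138, 0.00139 and 0.00136). The unnamed model was lower too (-0.41, limma adjusted p = 0.0251), and Ighg1 did not pass (-0.96, limma adjusted p = 0.161). This direction is opposite to the members but is that of most of the table. The authors' selection listed 201 of 242 genes as lower in P, and 34.7% passed as lower. In T the nearest of 280 were Myl9 (0.81), a myosin light chain of smooth muscle, Gpx6 (0.77), a glutathione peroxidase, H2-Ob (0.73), an MHC class II gene of B cells, and 2 unnamed models (0.75 and 0.73). Myl9 had a median of 2.54 with vehicle and 1.46 with SXB, a difference that did not pass under the labels (limma adjusted p = 0.229).

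Of 34 further mesothelial genes, the table of T held Fgf9, a fibroblast growth factor made by mesothelium in the mouse embryo, and Pkhd1l1, a large membrane protein. Fgf9 ran from 0 to 0.09 (median 0.045) with vehicle and from 0 to 0.04 (median 0.005) with SXB, and its log2 difference of -0.05 (SE 0.02, limma adjusted p = 0.168) did not pass, nor did -0.06 without libraries 16 and 18 (adjusted p = 0.0828). Pkhd1l1 did not exceed 0.04 in any library and did not pass. Of 14 bile duct and gallbladder genes and 7 urothelial genes, which share Krt7 or uroplakins with mesothelium, 0 stood in either table. Of 17 fibroblast and stellate cell genes Timp1 stood in T alone and did not pass. Of 21 Wnt and R-spondin genes, Wif1, a secreted Wnt inhibitor, stood in both tables. In T it did not pass under the labels, at a median of 0.10 with vehicle and 0.55 with SXB (limma adjusted p = 0.167), while it rose by 0.50 without libraries 16 and 18 (limma adjusted p = 0.0339). In P, Wif1 did not pass (log2 difference -0.20, limma adjusted p = 0.191). Of 12 pancreas genes, Cela2a alone stood in T. It rose by 0.41 without libraries 16 and 18 (limma adjusted p = 0.0387) and did not pass under the labels. The background to Wif1 and Cela2a without libraries 16 and 18 is that 18.3% of all 306 genes passed limma, 6.21% higher and 12.1% lower with SXB. Of 10 peritoneal macrophage and B-1 cell genes, Cxcl13 alone stood in P and did not pass (limma adjusted p = 0.0548). Of 7 nerve and glial genes, Scn3a stood in both tables and passed in neither. Of 8 endothelial genes and 7 intestinal epithelial genes, 0 stood in either table.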

How the data were processed

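Total liver RNA was extracted with TRIzol and read as paired ends, per the labels' protocols. Tools named in the submitters' processing notes are DESeq2, RSEM, StringTie, HISAT2 and fastp, with GRCm38 as the build, and no version, role or order. The authors deposited, per gene and library, a normalised expression signal rounded to 0.01, and the sources used here do not say if this is TPM or FPKM. Names of the comparison columns are out of step with their content, and those of T repeat the names of P. Judged from the numbers, the authors deposited a fold change (ratio), the log2 of it, a p-value before adjustment and one after. Genes that did not pass the authors' selection were not used here.

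Groups follow the treatment label. limma 3.58.1 in R 4.3.3 was run on log2(value + 1) over all genes of each table, two-sided, with Benjamini-Hochberg adjustment over that table and a threshold of 0.05; no count model was used. Exact permutation tests used all 12870 assignments of 16 libraries or 3432 of 14, and correlations 100000 resamples shuffled within groups (Python 3.11.15, scipy 1.17.1). The scripts were tested on simulated data. Alternatives were pseudocounts of 0.1 and 0.01, filters on a mean of 0.1 or on 8 libraries above 0, trend and robust fitting, and libraries left out. Named beyond the members are the 5 genes per table most like them, leaving out unnamed models, and genes of 13 fixed lists; mt-Atp6, mt-Co3 and Orm2 were chosen after their values were seen. The members, lists and tests were chosen with earlier results of these data known. Depth is unknown, so no counting interval is given.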

Additional observations from a re-analysis of the deposited data

Results flagged for a closer look

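In T, SXB library 18 held 0.26 for Msln, far from the next SXB value of 0.11 (gap of 0.577 of the range of the group). Vehicle library 11 held 0.93 for Anxa8, far from the next vehicle value of 0.29 (0.762 of the range). For normally distributed values, chance alone would single out about 1 in 20 of the 24 groups examined. The values here are rounded to 0.01 and many are listed at 0, so that rate may not hold. The treatment differences of Upk3b and Msln differed between the experiments in the limma interaction, by -0.28 and -0.30 (T minus P) on the log2(value + 1) scale. Both genes had entered the tables in opposite directions through the authors' selection, so this is not independent evidence. Of the 15 shared genes 33.3% passed. Without libraries 1 to 4 of T neither gene passed (limma interaction adjusted p = 0.0675 for each).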

How the results depend on the processing

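Of the 6 members listed in P, 2 passed in the reported fit, 4 with a pseudocount of 0.1 or 0.01 or with trend and robust fitting, 3 by the exact permutation test and 0 with a mean of at least 0.1 (where 1 member was left, and 75 of 161 genes passed) or without vehicle libraries 33, 34 and 35. Leaving out single libraries gave 0 to 4, with 28.1% to 41.7% of the 242 genes passing. In T 0 passed, 3 did without libraries 16 and 18 at a pseudocount of 0.1, and leaving out single libraries gave 0 to 0. In the 14 libraries without 16 and 18, 0 passed limma, 1 the exact permutation test, and single omissions gave 0 to 1. Over all genes, 94 passed in P and 54 without vehicle libraries 33, 34 and 35. In T 0 passed under the labels, 2 with a pseudocount of 0.01, 56 without libraries 16 and 18, 106 at a pseudocount of 0.1 in those 14 libraries, 4 without libraries 1 to 4, 16 and 18, and 3 to 76 with 1 more library left out of the 14. The differences kept their direction under each alternative except that of Nkain4 in T, which was 0.063 without libraries 1 to 4 and 0.016 without libraries 1 to 4, 16 and 18, and ran from -0.096 to 0.0071 over single omissions. The difference between the experiments was -0.22 for Upk3b and -0.27 for Msln without libraries 1 to 4 of T, neither passing, and -0.31 to -0.25 and -0.33 to -0.25 when single libraries were left out. Leaving out libraries 1 to 4 together with 16 and 18, and single omissions from the 14 libraries or from the comparison of experiments, were added after the data were seen. The cause of these changes was not tested. No paired analysis was possible because no library number occurs in more than 1 group. Values below 0.1, rounded to 0.01, limit the precision of most members.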
